A study of Mus musculus with 13 samples.

Results

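The 10 genes described here set the pace of the G1 phase of the cell cycle: the D-type cyclins Ccnd2 and Ccnd3, the kinases Cdk4 and Cdk6 that they activate, the inhibitors Cdkn1a (p21), Cdkn1b (p27), Cdkn2c (p18) and Cdkn2d (p19), and the phosphatases Cdc25a and Cdc25b. They were taken as a named list, 10 of the 35906 genes to which the deposited transcript values could be summed. All 10 were found in the annotation. RNA came from M2 CD4 single-positive (CD4SP) thymocytes, the most mature CD69-MHCI+ stage, sorted from Lm54 TCR-transgenic mice on a Rag1-/- background, so that all cells carry the same T cell receptor in every group. CtslΔTEC mice lack cathepsin L (Ctsl) in thymic epithelial cells through a Foxn1-cre transgene, and thymocytes themselves keep the gene. The controls are written Ctsl+/+ below, as the study does, whereas the sample labels give them as floxed Ctsl without the deletion. Mice were of a C57BL/6J background, of both sexes and, where the methods do not say otherwise, 8 to 12 weeks old. Unstimulated cells came from 4 Ctsl+/+ mice (mice 1 to 4) and 5 CtslΔTEC mice (mice 1 to 5). Cells stimulated for 4 h with plate-bound LLO:I-Ab monomer at 1 µg/ml, the ligand of this receptor, and soluble anti-CD28 at 250 ng/ml came from 2 Ctsl+/+ mice (mice 5 and 6) and 2 CtslΔTEC mice (mice 6 and 7). Each library is from 1 mouse.

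A T cell leaves quiescence when D-type cyclins accumulate and load onto CDK4 and CDK6. These complexes phosphorylate the retinoblastoma protein, which frees E2F factors to switch on the genes of S phase. The INK4 proteins p18 and p19 block CDK4 and CDK6 directly, p27 and p21 bind cyclin-CDK complexes, and CDC25 phosphatases remove the inhibitory phosphates from CDKs. In naive T cells p27 is a well known keeper of quiescence, and its protein is removed after activation. Cyclin D3 has a known role in the expansion of immature thymocytes, and cyclin D2 is a known early product of T cell activation.

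Depth ranged from 25692380 to 39127833 estimated counts without stimulation and from 8085463 to 27184520 with it, the lowest being that of stimulated Ctsl+/+ mouse 5. Levels are given as CPM (counts scaled to library size after TMM normalisation) where libraries are compared for 1 gene, and as TPM (a share of all transcripts that allows for transcript length) where genes are compared with each other. All 4 stimulated libraries carry a later date than the 9 unstimulated ones, and no cells cultured without stimulus were sequenced, so stimulation, culture and date cannot be told apart. The 7 activation genes looked up as a check (Cd69, Nr4a1, Egr1, Egr2, Il2ra, Il2 and Myc) all rose in the stimulated cells of both genotypes, Myc by 3.76 and 4.13 in log2 CPM. Of 6 markers of thymic epithelium, Foxn1 was at most at 0.0338 TPM and Psmb11 at most at 0.817 TPM, and the 6 summed to 5.39 to 7.36 TPM in unstimulated Ctsl+/+, 3.85 to 5.99 TPM in unstimulated CtslΔTEC, 8.02 to 10.1 TPM in stimulated Ctsl+/+ and 9.95 to 11.8 TPM in stimulated CtslΔTEC libraries. Of the 3 that were tested in unstimulated cells, Epcam was higher (log2 fold change 0.77, adjusted p = 0.0469) and Prss16 lower (-1.12, adjusted p = 0.00155) in CtslΔTEC cells, and their part in the results below was not tested. Markers of double-positive (DP) thymocytes, the preceding stage, summed over 8 genes to 45.3 to 67.4 TPM in unstimulated Ctsl+/+ and 200 to 270 TPM in unstimulated CtslΔTEC libraries, with 6 of the 7 genes tested higher in CtslΔTEC cells. In stimulated cells they summed to 19.6 to 23.1 TPM and 56.6 to 59.8 TPM. The 8 genes include Rag1, which is disrupted in all these mice and was at most at 5.71 TPM in any library. In bulk RNA, fewer cells of a type and less RNA per cell cannot be told apart.

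In unstimulated Ctsl+/+ cells the D-type cyclins and the inhibitor p27 were the most abundant transcripts of the group. Ccnd3 led with 269 ± 19.1 TPM (SD, n = 4), followed by Cdkn1b with 148 ± 16.6, Ccnd2 with 112 ± 14.9, Cdk4 with 104 ± 17.0 and Cdkn2d with 99.3 ± 11.03 TPM. The libraries of neighbouring genes in this order overlapped from Cdkn1b to Cdkn2d, but Ccnd3 stood clear of Cdkn1b. Cdc25b (27.0 ± 2.61 TPM), Cdc25a (16.8 ± 0.742), Cdk6 (11.8 ± 3.06) and Cdkn2c (6.93 ± 1.19) formed a lower tier without overlap between neighbours. Cdkn1a was at the bottom with 0.165 ± 0.0961 TPM. In unstimulated CtslΔTEC cells the order differed at 2 genes: Ccnd2 (51.4 ± 8.02 TPM, n = 5) stood below Cdkn2d (87.3 ± 10.6 TPM), and Cdc25b (8.55 ± 1.01 TPM) below Cdk6 (9.13 ± 2.50 TPM), the last pair overlapping.

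**Figure D1:**
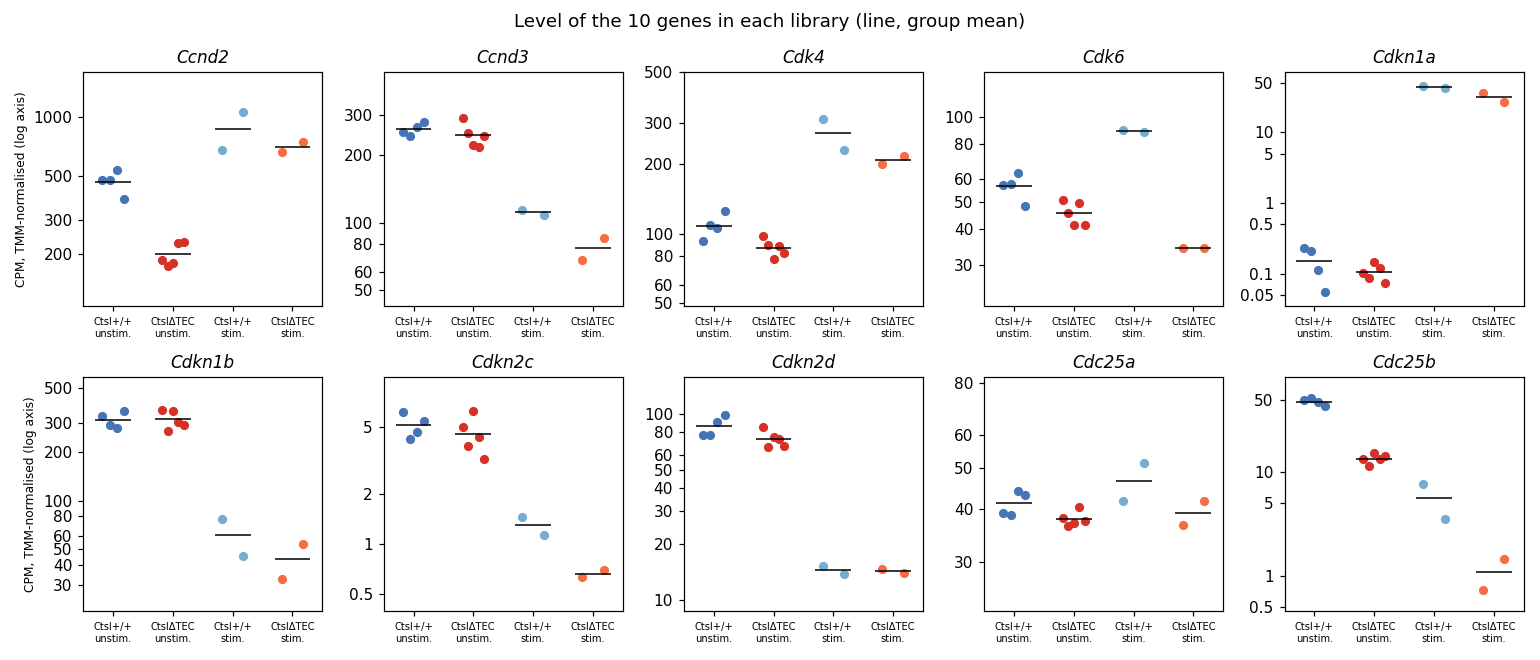
Level of each of the 10 genes (TMM-normalised CPM, log axis with its own range for each gene) in the 13 libraries, by genotype and stimulation; points are mice and lines are group means. Ccnd2 and Cdc25b are lower in all 5 unstimulated CtslΔTEC mice than in all 4 Ctsl+/+ mice, and Cdk6 is at 88.2 and 89.9 CPM in stimulated Ctsl+/+ mice against 34.2 and 34.4 CPM in stimulated CtslΔTEC mice.

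The comparison of unstimulated CtslΔTEC with Ctsl+/+ cells asks how G1 genes differ in thymocytes that were selected on epithelium without cathepsin L. Of the 10 genes, 9 had enough counts to be tested and 4 were lower in CtslΔTEC cells, Ccnd2, Cdc25b, Cdk4 and Cdk6, at an adjusted p under 0.1 (edgeR's quasi-likelihood test, Benjamini-Hochberg adjustment over 13152 genes). None of the 9 was higher with edgeR or DESeq2, or at an unadjusted p under 0.05. Over all genes tested, 8.36% were lower and 6.42% higher. The median log2 fold change was -0.22 over the 9 genes and 0.01 over all genes.

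Ccnd2 (ENSMUSG00000000184; chromosome 6, 127125162 to 127152193 of GRCm38, minus strand) encodes cyclin D2. It was at 477, 479, 540 and 381 CPM in the 4 Ctsl+/+ mice and at 187, 174, 181, 229 and 232 CPM in the 5 CtslΔTEC mice. The highest CtslΔTEC mouse lay well below the lowest Ctsl+/+ mouse. On the log2 scale CtslΔTEC cells differed by -1.22 (standard error 0.11, adjusted p = 4.92e-05), that is, 0.429 times the Ctsl+/+ level. A two-sided exact permutation test on log2 CPM gave p = 0.00794, the smallest that splits of 4 and 5 mice allow. Of the 9 genes tested in this way, 2 reached it, Ccnd2 and Cdc25b.

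Cdc25b (ENSMUSG00000027330; chromosome 2, 131186949 to 131198497, plus strand), a phosphatase known for activating CDKs on the way into mitosis, showed the largest difference of the 9 genes. It was at 49.4, 51.7, 47.4 and 43.3 CPM in Ctsl+/+ mice and at 13.3, 11.4, 15.2, 13.4 and 14.3 CPM in CtslΔTEC mice. Within each genotype the mice lay close together and the genotypes did not overlap. This was a log2 difference of -1.83 (standard error 0.09, adjusted p = 4.37e-07, exact permutation p = 0.00794). Its partner Cdc25a (ENSMUSG00000032477; chromosome 9, 109875579 to 109893895, plus strand), known for driving CDK2 at the G1/S boundary, ranged from 38.7 to 44.1 CPM in Ctsl+/+ and from 36.5 to 40.6 CPM in CtslΔTEC mice, a log2 difference of -0.12 (95% interval -0.27 to 0.03, adjusted p = 0.321).

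For the kinases the differences were small and the genotypes overlapped. Cdk4 (ENSMUSG00000006728; chromosome 10, 127063534 to 127067920, plus strand) was at 92.8, 108.9, 106.1 and 125.3 CPM in Ctsl+/+ and at 97.9, 89.0, 77.8, 88.3 and 82.6 CPM in CtslΔTEC mice (log2 fold change -0.31, standard error 0.09, adjusted p = 0.0522). Cdk6 (ENSMUSG00000040274; chromosome 5, 3341485 to 3531008, plus strand) was at 57.4, 57.9, 63.3 and 48.5 CPM and at 50.8, 45.5, 41.4, 49.6 and 41.3 CPM (log2 fold change -0.31, standard error 0.09, adjusted p = 0.0544). In both genes 1 Ctsl+/+ mouse lay within the CtslΔTEC range, mouse 1 for Cdk4 and mouse 4 for Cdk6. These calls were lost when other mice were left out, Ctsl+/+ mouse 2 or 4 or CtslΔTEC mouse 3 or 5 for Cdk4, and Ctsl+/+ mouse 1, 2 or 3 or CtslΔTEC mouse 2, 3 or 5 for Cdk6, with log2 fold changes as small as -0.23 and -0.25. Neither passed with the effective transcript length as an offset (-0.21 and -0.41, adjusted p = 0.527 and 0.249).

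With Cdc25a, 5 of the 9 genes tested did not pass, and most of their intervals spanned 0. Ccnd3 (ENSMUSG00000034165; chromosome 17, 47505051 to 47599691, plus strand), encoding cyclin D3, was at 253, 243, 267 and 280 CPM in Ctsl+/+ and 293, 251, 221, 218 and 243 CPM in CtslΔTEC mice (log2 difference -0.09, 95% interval -0.28 to 0.11). Cdkn1b (ENSMUSG00000003031; chromosome 6, 134920401 to 134925513, plus strand) ranged from 282 to 361 CPM and from 269 to 363 CPM (0.01, -0.22 to 0.24). The mice of both genotypes were intermixed for these abundant transcripts. The INK4 genes Cdkn2d (ENSMUSG00000096472; chromosome 9, 21288410 to 21291407, minus strand) and Cdkn2c (ENSMUSG00000028551; chromosome 4, 109660876 to 109667189, minus strand) differed by -0.22 (-0.43 to -0.01, adjusted p = 0.181) and -0.18 (-0.60 to 0.24, adjusted p = 0.627). Cdkn2d did pass with library date as a factor (-0.26, adjusted p = 0.0275), within the later date (-0.24, adjusted p = 0.0973) and without CtslΔTEC mouse 1 (-0.28, adjusted p = 0.0681). Cdkn1a (ENSMUSG00000023067; chromosome 17, 29090976 to 29100727, plus strand) had 2 to 8 counts in every unstimulated library and was not tested.

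**Figure D2:**
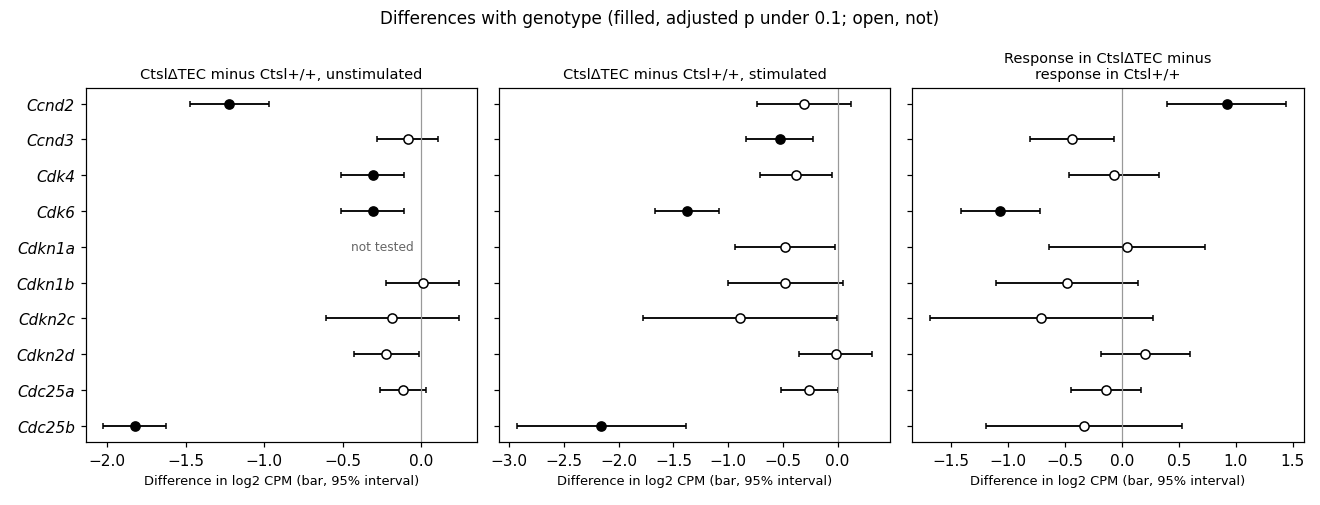
Difference between CtslΔTEC and Ctsl+/+ cells in log2 CPM for each gene, unstimulated (left), stimulated (middle) and as the difference between the responses of the genotypes (right); bars are 95% intervals from edgeR's fit, filled points have an adjusted p under 0.1. Ccnd2 differs by -1.22 in unstimulated and -0.31 in stimulated cells, Cdk6 by -0.31 and -1.38, and Cdc25b by -1.83 and -2.16.

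Several features moved with genotype in the unstimulated libraries, and their part in these results was not tested unless a value is given. The DP marker sum above is one, and 6 of 8 markers of mature CD4SP cells were lower in CtslΔTEC cells, with summed TPM of 3147 to 3728 in Ctsl+/+ and 2802 to 2897 in CtslΔTEC libraries. Of 5 markers of regulatory T cells 2 were higher and 1 lower, and of 5 myeloid markers tested 1 was higher and 1 lower. Over all genes 6.42% were higher and 8.36% lower. All 5 CtslΔTEC mice but only 1 of the 4 Ctsl+/+ mice had Y-linked transcripts. When the average of 4 Y-linked genes entered the fit as a covariate, Ccnd2 (log2 fold change -1.43, adjusted p = 0.00157) and Cdc25b (-1.81, 0.000173) still passed the test, whereas Cdk4 (-0.26, 0.594) and Cdk6 (-0.46, 0.181) did not. The 9 libraries carry 2 dates, the earlier with only 1 Ctsl+/+ mouse. Within the later date alone, with 3 mice of each genotype, the log2 fold changes were -1.23 for Ccnd2, -1.92 for Cdc25b, -0.24 for Cdk4 and -0.39 for Cdk6, and all 4 passed the test.

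Stimulated cells were compared between genotypes with 2 mice each, in a fit of all 13 libraries that shares 1 estimate of the spread. Among the stimulated mice, Ctsl+/+ mouse 6 and CtslΔTEC mouse 7 had Y-linked transcripts, and Ctsl+/+ mouse 5 and CtslΔTEC mouse 6 did not. Of the 10 genes, Cdc25b, Cdk6 and Ccnd3 were lower in CtslΔTEC cells and none was higher with edgeR or DESeq2 or at an unadjusted p under 0.05, beside 10.6% lower and 2.77% higher among the 14241 genes tested. The median log2 fold change was -0.48 over the 10 genes and -0.05 over all genes. Ccnd2, which stood apart in unstimulated cells, did not pass the test here. Of the markers, 4 of 8 of mature CD4SP cells and 2 of 5 of regulatory T cells were lower in CtslΔTEC cells, and 3 of 8 of DP thymocytes were higher. The 7 activation genes, of which 1 was lower by the test, summed to 6512 and 8810 TPM in Ctsl+/+ and 9743 and 9949 TPM in CtslΔTEC libraries. Their part in these results was not tested.

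Cdk6 was at 89.9 and 88.2 CPM in stimulated Ctsl+/+ mice and at 34.2 and 34.4 CPM in stimulated CtslΔTEC mice. The mice of each genotype were nearly level with each other, and the CtslΔTEC mice had less than any of the 4 Ctsl+/+ or 5 CtslΔTEC mice before stimulation. CtslΔTEC cells thus differed by -1.38 in log2 CPM (standard error 0.14, adjusted p = 7.61e-05), or 0.385 times the Ctsl+/+ level. Cdc25b was at 7.68 and 3.53 CPM in Ctsl+/+ and at 0.722 and 1.45 CPM in CtslΔTEC mice, the latter resting on 8 and 23 counts (log2 fold change -2.16, standard error 0.36, adjusted p = 0.00215). It still passed at -2.75 without Ctsl+/+ mouse 6 and at -2.82 without CtslΔTEC mouse 7, and it was as small as -1.64 without Ctsl+/+ mouse 5. Ccnd3 was at 114 and 108 CPM against 67.9 and 85.7 CPM (-0.53, standard error 0.14, adjusted p = 0.0321). The Ccnd3 call was lost without Ctsl+/+ mouse 5 (-0.50, adjusted p = 0.153) or CtslΔTEC mouse 6 (-0.37, adjusted p = 0.274).

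Ccnd2 was at 683 and 1062 CPM in stimulated Ctsl+/+ mice and at 664 and 749 CPM in CtslΔTEC mice. The pair of Ctsl+/+ mice differed more from each other than the genotypes did in their means, and the log2 difference was -0.31 (95% interval -0.74 to 0.12, adjusted p = 0.405). Cdk4 was at 313 and 230 CPM against 199 and 216 CPM (-0.38, -0.71 to -0.05, adjusted p = 0.153). Although the genotypes did not overlap for Cdk4, it did not pass the adjusted test. The Cdk4 difference was -0.59 without Ctsl+/+ mouse 6 and -0.15 without Ctsl+/+ mouse 5.

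Among the inhibitors no difference passed the test in stimulated cells. Cdkn1b was at 76.8 and 45.4 CPM in Ctsl+/+ and 32.9 and 53.4 CPM in CtslΔTEC mice, so the genotypes overlapped (-0.48, -1.003 to 0.05). The Cdkn1b difference was -0.83 without Ctsl+/+ mouse 6 and -0.89 without CtslΔTEC mouse 7. It was only -0.07 without Ctsl+/+ mouse 5 and -0.18 without CtslΔTEC mouse 6. Cdkn1a was at 45.0 and 42.8 CPM against 36.2 and 26.7 CPM (-0.48, -0.94 to -0.02, adjusted p = 0.196). Cdkn2d was at 15.2 and 13.9 CPM against 14.6 and 13.97 CPM, a log2 difference of -0.02 with an interval from -0.35 to 0.32. Cdkn2c had 7 to 29 counts per stimulated library, and its difference of -0.89 (-1.78 to 0.00, adjusted p = 0.219) was imprecise.

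Stimulation moved 9 of the 10 genes in each genotype. In Ctsl+/+ cells 4 rose (Cdkn1a, Cdk4, Ccnd2 and Cdk6) and 5 fell (Cdc25b, Cdkn2d, Cdkn1b, Cdkn2c and Ccnd3). In CtslΔTEC cells Cdkn1a, Ccnd2 and Cdk4 rose, and the same 5 genes fell together with Cdk6. So many genes moved at 4 h that these counts stand beside a high background: 32.9% of genes rose and 34.8% fell in Ctsl+/+ cells, and 32.9% rose and 38.2% fell in CtslΔTEC cells. Markers of red blood cells moved with stimulation as well. These 6 genes, led by hemoglobin genes, summed to 119 to 206 TPM in unstimulated Ctsl+/+, 107 to 515 TPM in unstimulated CtslΔTEC, 22.2 to 26.9 TPM in stimulated Ctsl+/+ and 6.30 to 42.6 TPM in stimulated CtslΔTEC libraries, and 4 of the 4 tested fell in each genotype. The 5 markers of regulatory T cells (Il2ra, also among the activation genes, is one), of which 4 rose and 1 fell in each genotype, summed to 37.6 to 52.2 TPM in unstimulated and 357 to 376 TPM in stimulated libraries. Their part in the responses was not tested. The response of each genotype is drawn in the plot of stimulated against unstimulated cells.

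**Figure D3:**
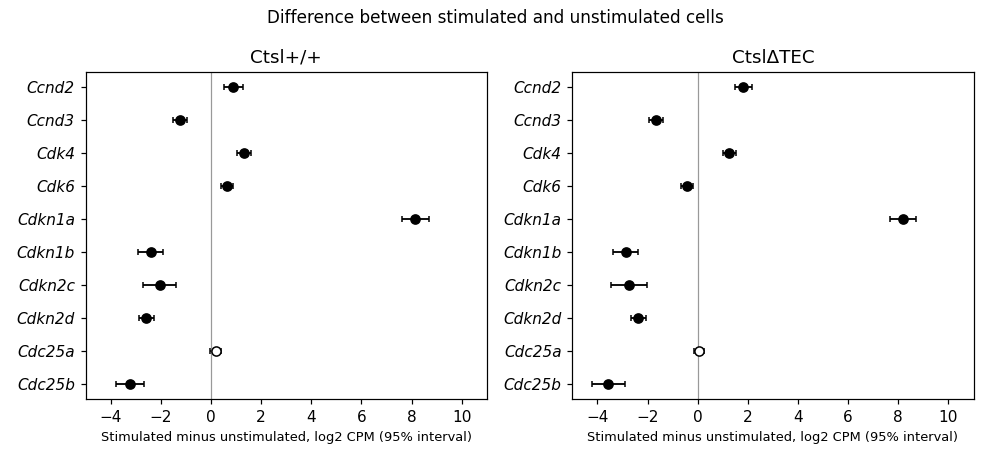
Difference between stimulated and unstimulated cells in log2 CPM, in Ctsl+/+ (left) and CtslΔTEC mice (right), with 95% intervals; filled points have an adjusted p under 0.1. Cdkn1a rises by 8.14 and 8.18, Cdc25b, Cdkn1b, Cdkn2c and Cdkn2d fall by 2.04 to 3.56, and Cdk6 rises by 0.65 in Ctsl+/+ and falls by 0.41 in CtslΔTEC cells.

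The cyclins moved in opposite directions. Ccnd2 rose by 0.90 on the log2 scale in Ctsl+/+ cells (standard error 0.17, adjusted p = 0.000286) and by 1.82 in CtslΔTEC cells (0.16, 8.38e-08), while Ccnd3 fell by 1.23 (0.13, 8.22e-07) and by 1.67 (0.13, 2.35e-08). The rise of Ccnd2 in Ctsl+/+ cells was 0.53 without stimulated Ctsl+/+ mouse 6 and 1.16 without stimulated Ctsl+/+ mouse 5. On the TPM scale the sum of the pair remained within 245 to 405 TPM over all 13 libraries. Its composition changed: Ccnd2 made up 25.7 to 32.8% of the pair in unstimulated Ctsl+/+ mice, 12.5 to 17.4% in unstimulated CtslΔTEC mice, 68.1 and 71.9% in stimulated Ctsl+/+ mice and 72.4 and 75.5% in stimulated CtslΔTEC mice. Cyclin D3 transcripts thus outnumbered cyclin D2 transcripts in every unstimulated library and were outnumbered in every stimulated one. Cdk4 rose by 1.32 in Ctsl+/+ cells (standard error 0.13, adjusted p = 3.86e-07) and 1.25 in CtslΔTEC cells (0.12, 3.24e-07), and with 246 ± 12.02 and 228 ± 12.3 TPM (SD, n = 2 each) it had the highest mean of the 10 genes after stimulation, with overlap to Ccnd2.

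The inhibitors exchanged places. Cdkn1b fell by 2.40 in Ctsl+/+ (standard error 0.23, adjusted p = 3.66e-07) and by 2.88 in CtslΔTEC cells (0.24, 4.22e-08), Cdkn2d by 2.57 and 2.37 and Cdkn2c by 2.04 and 2.75, all with adjusted p of 3.69e-05 or less. Cdkn1a had 18 counts in all 4 unstimulated Ctsl+/+ libraries together and 1444 in the 2 stimulated ones, and 19 and 824 in CtslΔTEC cells. The ratio of its summed counts, scaled to library size, was 304 (exact 95% interval 191 to 514) in Ctsl+/+ and 281 (179 to 469) in CtslΔTEC cells, intervals that cover counting error only. In TPM the 4 inhibitor genes summed to 224 to 281 in unstimulated Ctsl+/+, 207 to 284 in unstimulated CtslΔTEC, 79.6 and 71.1 in stimulated Ctsl+/+ and 57.5 and 59.2 in stimulated CtslΔTEC mice. Of that sum Cdkn1a took at most 0.102% before stimulation and 33.5 to 46.6% after it, which made p21 transcripts the leading inhibitor transcripts by mean, with overlap to Cdkn1b in both genotypes. Inhibitor transcripts per D-type cyclin transcript ranged from 0.620 to 0.937 in unstimulated and from 0.180 to 0.269 in stimulated libraries.

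**Figure D4:**
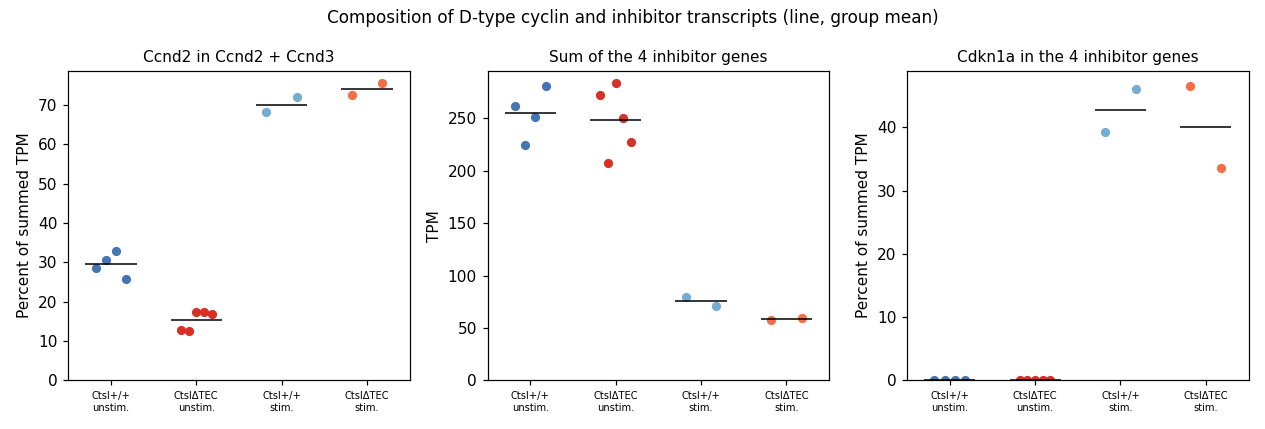
Share of Ccnd2 in the summed TPM of Ccnd2 and Ccnd3 (left), summed TPM of Cdkn1a, Cdkn1b, Cdkn2c and Cdkn2d (middle) and share of Cdkn1a in that sum (right), by library; points are mice, lines are group means and axes start at 0. Ccnd2 holds 12.5 to 32.8% of D-type cyclin transcripts in unstimulated and 68.1 to 75.5% in stimulated libraries.

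The CDC25 genes differed from each other. Cdc25b fell by 3.23 in Ctsl+/+ (standard error 0.25, adjusted p = 3.6e-08) and by 3.56 in CtslΔTEC cells (0.30, 6.51e-08), whereas Cdc25a was at 41.8 and 51.6 CPM in stimulated Ctsl+/+ and 36.6 and 41.9 CPM in stimulated CtslΔTEC mice, with log2 differences of 0.19 (95% interval -0.03 to 0.41, adjusted p = 0.129) and 0.05 (-0.16 to 0.26, adjusted p = 0.679). Without stimulated CtslΔTEC mouse 7 the Cdc25b difference in CtslΔTEC cells was -4.24. The Cdc25a difference in Ctsl+/+ cells was 0.31 without stimulated Ctsl+/+ mouse 5 and 0.002 without stimulated Ctsl+/+ mouse 6. With the length offset it passed the test (0.23, adjusted p = 0.0861). Cdc25a was the member with the narrowest range over all 13 libraries, 14.5 to 22.4 TPM.

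Whether the genotypes responded differently was tested as the interaction of genotype and stimulation. Cdk6 and Ccnd2 passed and went in opposite directions, the other 8 genes did not pass, and 4.88% of all genes had a lower and 1.13% a higher response in CtslΔTEC cells. Cdk6 rose by 0.65 in Ctsl+/+ cells (standard error 0.11, adjusted p = 0.000116) and fell by 0.41 in CtslΔTEC cells (0.11, 0.00502), and the difference between the responses was -1.06 (standard error 0.16, 95% interval -1.41 to -0.72, adjusted p = 0.00389). With each mouse left out in turn the interaction still passed, but with the effective transcript length of the gene as an offset all 3 calls were lost, at 0.25 in Ctsl+/+ (adjusted p = 0.444), -0.53 in CtslΔTEC cells (adjusted p = 0.102) and -0.78 for the interaction (adjusted p = 0.342). For Ccnd2 the response was larger in CtslΔTEC cells by 0.92 (standard error 0.24, 95% interval 0.40 to 1.44, adjusted p = 0.0526), with mice starting from a lower level and reaching overlapping ones. The Ccnd2 call was lost without stimulated Ctsl+/+ mouse 5 (0.63, adjusted p = 0.263), stimulated CtslΔTEC mouse 6 (1.00, 0.129) or stimulated CtslΔTEC mouse 7 (0.82, 0.170), and in the fit of single transcripts the coding transcript Ccnd2-201 did not pass (0.83, 0.233). The estimate for Cdc25b was -0.33 with an interval from -1.19 to 0.53, and for Cdkn1a 0.04 with an interval from -0.64 to 0.73. With counts thinned to the smallest library total the Cdkn1a estimate was 1.22 (adjusted p = 0.587), outside that interval.

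Because the files hold transcripts, the genes can be followed to single annotated transcripts. Cdk6-202, a coding transcript of 11525 bases, held 53.8 to 68.2% of Cdk6 TPM by group and was at 6.59, 6.30, 7.13 and 5.30 TPM in unstimulated Ctsl+/+ and 5.91, 5.04, 4.96, 5.75 and 4.75 TPM in unstimulated CtslΔTEC mice. After stimulation it was at 8.84 and 9.57 TPM in Ctsl+/+ and at 3.52 and 3.51 TPM in CtslΔTEC mice. The interaction for this transcript was -1.16 (standard error 0.17, adjusted p = 0.0123 over 52608 transcripts, of which 1.02% were lower). A coding transcript of only 425 bases, Cdk6-205, was at 0 and 7.04 TPM in the 2 stimulated Ctsl+/+ mice, as wide a range as over all libraries. On the TPM scale of the whole gene, stimulated Ctsl+/+ mice were at 8.92 and 18.1 TPM and unstimulated ones at 8.79 to 14.4 TPM, so that these overlapped, whereas stimulated CtslΔTEC mice were at 5.90 and 5.97 TPM, below the unstimulated ones at 6.90 to 11.8 TPM.

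Ccnd3 transcripts begin in 2 regions, 13 of them between 47505051 and 47505241 of chromosome 17 and 8 between 47593436 and 47597164. The 8 downstream starts are spread over their region and are not 1 start site. Their coding transcripts gave different test results between the genotypes in unstimulated cells. Ccnd3-215, from the upstream start, was at 69.9, 65.5, 64.8 and 71.7 TPM in Ctsl+/+ and at 80.4, 71.6, 65.7, 67.8 and 69.4 TPM in CtslΔTEC mice (log2 difference -0.02, standard error 0.08, adjusted p = 0.973). Ccnd3-205, from the downstream start, was at 46.7, 41.4, 60.2 and 41.7 TPM and at 37.6, 27.5, 34.2, 23.7 and 24.3 TPM, without overlap (-0.77, standard error 0.15, adjusted p = 0.0373, beside 1.56% of 45141 transcripts lower). A test of the difference between these transcripts was not made. In stimulated cells both were lower in CtslΔTEC mice, Ccnd3-205 by 0.96 (adjusted p = 0.0435) with 19.5 and 18.8 against 10.6 and 10.6 TPM, and Ccnd3-215 by 0.79 (adjusted p = 0.0257), beside 3.83% of transcripts lower. Summed over all transcripts, those that begin anywhere in the downstream region held 23.7 to 32.7% of Ccnd3 TPM in unstimulated Ctsl+/+ and 16.2 to 25.0% in unstimulated CtslΔTEC mice, which overlap.

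The pair of Ccnd3 windows is shown because the transcripts of each were followed separately. The reference sequence before each start is from RefSeq on GRCm38.p6, plus strand, ending at the last base before the first annotated transcript, with matches to the motifs named below in capitals.
Ccnd3 upstream start, chr17:47504801-47505050: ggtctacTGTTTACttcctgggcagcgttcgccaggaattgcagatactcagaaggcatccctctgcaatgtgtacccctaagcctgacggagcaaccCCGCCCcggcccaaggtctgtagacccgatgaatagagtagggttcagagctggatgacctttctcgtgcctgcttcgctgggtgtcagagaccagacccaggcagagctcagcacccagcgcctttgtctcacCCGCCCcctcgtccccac
Ccnd3 downstream start, chr17:47593217-47593435: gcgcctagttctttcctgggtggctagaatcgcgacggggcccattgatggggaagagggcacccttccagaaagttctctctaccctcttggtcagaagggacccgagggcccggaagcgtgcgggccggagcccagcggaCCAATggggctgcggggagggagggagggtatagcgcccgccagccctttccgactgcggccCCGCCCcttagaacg
Searched on both strands in the 250 bases before each start were CACGTG (E-box), TGTTTAC (FOXO), TGACTCA (AP-1), CCAAT (NF-Y) and GGGCGG (SP1). Only the upstream window holds TGTTTAC, found in 3.17% of 32851 such windows, and only the downstream window holds CCAAT, found in 33.8%. Both hold GGGCGG, found in 32.7%. No matches overlap in these windows, and a match describes letters, not binding.

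Cdk4 was followed to single transcripts as well. The coding transcript Cdk4-201 was at 39.5, 45.4, 49.0 and 54.2 TPM in unstimulated Ctsl+/+ and at 32.7, 29.4, 38.5, 35.5 and 27.9 TPM in unstimulated CtslΔTEC mice. The genotypes did not overlap (log2 fold change -0.60, standard error 0.12, adjusted p = 0.045). In stimulated cells it was at 129 and 78.6 TPM against 50.9 and 61.0 TPM (-1.01, standard error 0.25, adjusted p = 0.06). The retained-intron transcript Cdk4-207 was at 15.7 to 21.1 TPM and 15.8 to 24.2 TPM in unstimulated cells (-0.04, adjusted p = 0.963) and at 37.8 and 49.2 against 47.2 and 47.7 TPM in stimulated cells (0.03, standard error 0.23). The difference between these transcripts was not tested. When only protein-coding transcripts were summed, the stimulated genotype difference of Cdk4 was -0.69 (adjusted p = 0.0631) in place of -0.38. Retained-intron transcripts held 25.1 and 44.3% of Cdk4 TPM in stimulated Ctsl+/+ and 47.9 and 49.0% in stimulated CtslΔTEC mice, and over all genes 5.99 and 7.63% against 7.94 and 8.55%. In unstimulated cells they held 29.7 to 35.8% of Cdk4 TPM in Ctsl+/+ and 29.9 to 43.8% in CtslΔTEC mice, 16.6 to 25.1% and 24.6 to 29.96% of Ccnd3 TPM, and 5.13 to 5.77% and 5.59 to 6.59% over all genes. The part of this in the Cdk4 and Ccnd3 results was not tested. Cdk4 also overlaps Tspan31 on the other strand, as Ccnd3 overlaps Bysl and Cdc25b overlaps Spef1, and reads were assigned without strand as far as the methods state.

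**Figure D5:**
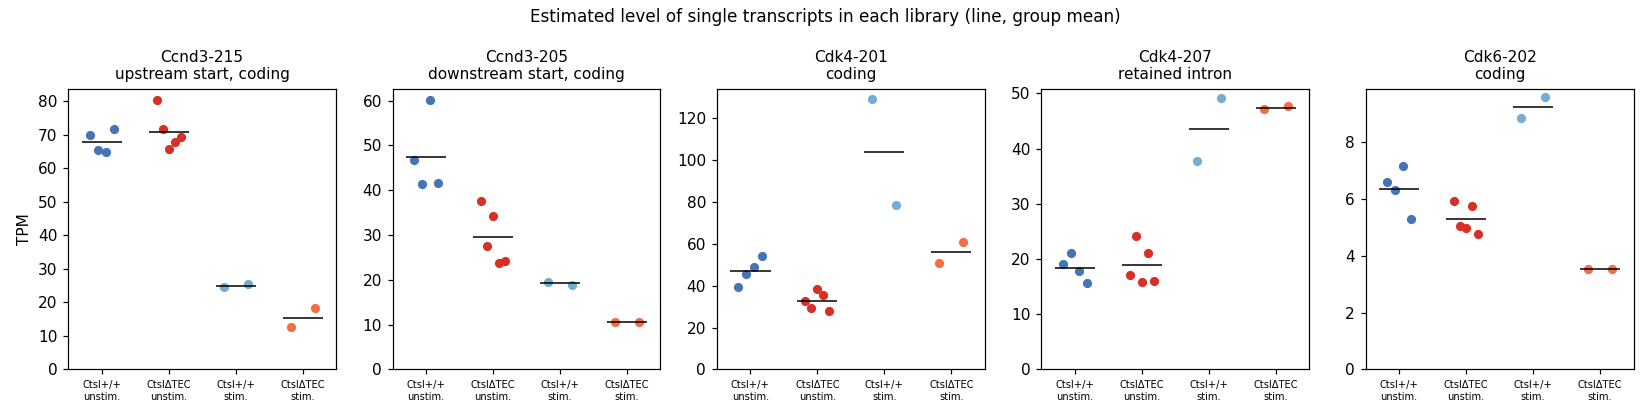
Estimated TPM of 5 single transcripts by library, with axes from 0; points are mice and lines are group means. Ccnd3-205 and Cdk4-201 are lower in CtslΔTEC cells before and after stimulation, Ccnd3-215 and the retained-intron transcript Cdk4-207 are not different in unstimulated cells by the test, and Cdk6-202 is at 8.84 and 9.57 TPM in stimulated Ctsl+/+ against 3.52 and 3.51 TPM in stimulated CtslΔTEC mice.

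The window before Cdk4 is shown because it holds the E-box, the letters that Myc and related factors are known to bind, 4 times.
Cdk4, chr10:127063285-127063533: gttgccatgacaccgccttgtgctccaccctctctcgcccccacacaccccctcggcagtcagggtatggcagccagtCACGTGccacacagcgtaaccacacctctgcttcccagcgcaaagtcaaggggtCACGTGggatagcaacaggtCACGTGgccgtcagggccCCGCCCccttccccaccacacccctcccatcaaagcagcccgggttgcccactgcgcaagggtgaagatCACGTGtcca
The E-box occurs at least once in 6.02% of all windows. Of the windows of the other genes searched, that of Cdk6 holds it once and those of Cdkn1a do not hold it. No window of Ccnd2 was searched. Whether these letters have a part in the response of any of these genes was not tested.

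Annotated Cdkn1a transcripts begin mainly at 2 places, and the windows are shown because nearly all induced transcripts came from the downstream one. Cdkn1a-201, starting at 29093769, was at 29.4 and 31.3 TPM in stimulated Ctsl+/+ and 23.8 and 17.8 TPM in stimulated CtslΔTEC mice, on average 94.9 and 89.2% of the TPM of the gene. Cdkn1a-202 and Cdkn1a-204, from the upstream start, were listed at 0 in all 4 stimulated libraries.
Cdkn1a upstream start, chr17:29090729-29090975: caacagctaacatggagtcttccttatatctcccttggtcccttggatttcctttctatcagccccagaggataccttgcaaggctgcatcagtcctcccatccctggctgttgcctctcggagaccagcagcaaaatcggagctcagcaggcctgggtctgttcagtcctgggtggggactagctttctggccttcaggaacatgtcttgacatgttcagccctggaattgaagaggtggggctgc
Cdkn1a downstream start, chr17:29093519-29093768: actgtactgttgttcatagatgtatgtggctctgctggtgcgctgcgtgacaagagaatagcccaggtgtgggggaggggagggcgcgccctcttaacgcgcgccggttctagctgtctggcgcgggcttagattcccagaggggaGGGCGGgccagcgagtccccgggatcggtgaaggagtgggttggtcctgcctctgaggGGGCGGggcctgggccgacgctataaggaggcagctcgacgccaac
The downstream window holds GGGCGG 2 times, and the upstream window holds none of the 5 motifs.

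Of the 32 other genes of the G1/S machinery that were looked up, 29 were tested. In unstimulated cells 5 were lower in CtslΔTEC cells and none was higher, beside the 8.36% and 6.42% of all genes. E2f2 (log2 fold change -1.10, standard error 0.22, adjusted p = 0.00692) and E2f1 (-0.87, 0.18, 0.00862), E2F factors that act downstream of the kinases, and Cks1b (-0.57, 0.19, 0.0889), a cofactor in the breakdown of p27, were the 3 with the largest differences, and E2f3 and Tfdp1 also passed. The median over the 29 was -0.03. In stimulated cells 0 of the 29 passed with edgeR and 0 with DESeq2, and 2 had an unadjusted p under 0.05. In the interaction 0 passed with edgeR, 3 had an unadjusted p under 0.05, and 2 passed with DESeq2, both with a higher response in CtslΔTEC cells. With stimulation 10 rose and 12 fell in Ctsl+/+ and 11 rose and 10 fell in CtslΔTEC cells, beside the 32.9% and 34.8% and the 32.9% and 38.2% of all genes. E2f5 (1.64 and 1.84), E2f3 (1.38 and 1.61) and Tfdp1 (1.37 and 1.46) rose in both genotypes, as did the ubiquitin ligase subunit Fbxw7 (1.50 and 1.25), whose complex is known for degrading cyclin E. E2f2 (-3.47 and -3.35) and the cyclin Ccne1 (-2.78 and -3.07) fell in both, as did the pocket protein gene Rbl2 (-2.62 and -3.11). Ccnd1, the third D-type cyclin, and the inhibitors Cdkn2a and Cdkn2b were too low to test, with Ccnd1 at most at 0.0921 TPM.

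Of 18 genes of S phase and mitosis, Mki67 was at most at 2.75 TPM, Ccna2 at most at 3.33 TPM, Cdk1 at most at 5.42 TPM and Top2a at most at 11.1 TPM in any library. Several replication genes were more abundant, with Pcna at 134 to 322 TPM and Mcm7 at 39.5 to 81.5 TPM, and the 18 genes summed to 360 to 470 TPM in unstimulated Ctsl+/+ and 360 to 578 TPM in unstimulated CtslΔTEC libraries. In CtslΔTEC cells Mcm5, a subunit of the replicative helicase, was higher without stimulation (log2 fold change 0.46, standard error 0.09, adjusted p = 0.00536) and with it (0.48, 0.13, 0.03). No other gene of the list passed the adjusted test between genotypes, beside 6.42% of all genes higher without stimulation and 2.77% with it. At an unadjusted p under 0.05, 3 genes of the list were higher without stimulation, Mcm5 included. Of the 18, 2 rose and 4 fell with stimulation in Ctsl+/+ cells and 3 rose and 7 fell in CtslΔTEC cells, beside the shares of all genes that rose (32.9% in each) or fell (34.8 and 38.2%). Pcna, the sliding clamp of DNA polymerase, rose by 0.84 and 0.92 and the helicase subunit Mcm2 by 0.28 and 0.27. Ccnb1, the mitotic cyclin B1, fell by 2.80 and 3.09, Top2a fell by 1.604 in Ctsl+/+ and Ccnb2 fell by 1.91 in CtslΔTEC cells.

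Cdkn1a is a classical p53 target, so 12 other genes were looked up, p53 targets together with Trp53, the gene of p53 itself. Of the 12, 11 were tested. With stimulation 3 rose and 6 fell in each genotype, beside 32.9% of all genes rising in each and 34.8 and 38.2% falling. Aen, an exonuclease, rose by 2.49 and 2.47, Phlda3 by 2.64 in Ctsl+/+ and Bbc3, encoding the cell death protein PUMA, by 1.56 in CtslΔTEC cells. Sesn1 fell by 1.68 and 2.57, Ccng1 fell by 0.98 in Ctsl+/+ and Trp53inp1 fell by 1.38 in CtslΔTEC cells. In stimulated cells Phlda3 (-2.22, standard error 0.74, adjusted p = 0.0793) and Ei24 (-0.96, 0.18, 0.00443) were lower in CtslΔTEC cells, and Sesn1 also passed, beside 10.6% of all genes lower. The interaction, lower for 4.88% of all genes, passed for Sesn1 (-0.89, 0.24, 0.053) and Ei24 (-0.83, 0.21, 0.046). In unstimulated cells, where 8.36% of all genes were lower, Bbc3 was lower (-1.50, standard error 0.21, adjusted p = 0.000865).

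Over the 13 libraries each gene was set beside the 13303 protein-coding genes tested, by Pearson's r of log2 CPM. As the libraries fall into stimulated and unstimulated ones, r is high for any gene that moved with stimulation, and it is given as a description. Nearest to Ccnd2 were Ahnak (r = 0.9748) and Dnmt3b (0.972), to Cdc25b Faah (0.987) and Dag1 (0.986), and to Cdkn1a Lrrc32 (0.998) and Yars (0.996). The profiles of Cdk6 and Cdc25a had no such close neighbour, the highest being Tm6sf2 (0.906) and Ppm1f (0.857).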

How the data were processed

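RNA of M2 CD4SP thymocytes from 13 mice was sequenced with paired reads. Reads were assigned by the authors to transcripts of Ensembl 106 with kallisto 0.48 at default settings. Deposited for each library were estimated counts (not normalized) and TPM (scaled by that tool for effective transcript length and library total) of 117497 transcripts. The labels call the RNA polyadenylated, whereas the methods describe rRNA depletion, which bears on retained-intron transcripts. No strand setting is given.

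Transcripts were paired with genes by identifier through GENCODE M21 (GRCm38), older than the authors' annotation. Left out were 1100 unpaired transcripts, with 0.461% or less of any library. Estimated counts were summed to 35906 genes, rounded, filtered with filterByExpr and TMM-normalised. Tests were edgeR 4.0.16 quasi-likelihood tests in R 4.3.3 with Benjamini-Hochberg adjustment over all genes tested and a threshold of 0.1. The 9 unstimulated libraries were fitted alone, and the other comparisons came from a model of 4 groups over 13 libraries. DESeq2 1.42.0, which is the study's tool in a later version, served as an alternative. Transcripts were fitted in the same way, as an addition made after their values were seen. The error of assigning reads to transcripts is not in their standard errors. Permutation tests were two-sided and exact and used log2 CPM (prior count 2).

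Groups and mouse numbers came from the labels. In 5 libraries the mouse number in the name of the deposited file differs from that in the title, and the title was used. Dates were read from those names, and what they mark is not stated. The 10 genes and the other lists were chosen with earlier results of these data known. Named beside the 10 genes were, in each comparison, the 3 other G1/S genes and the 2 genes of every further list with the largest change past the threshold in each direction (of the activation genes only Myc, picked after its values were seen), the 2 protein-coding genes with the highest r for a gene, and transcripts with at least 10% of their gene. The scripts were tested on simulated data. Mouse numbers shared between genotypes are not stated to mark litters or days. Alternatives were DESeq2, its size factors, no count filter, protein-coding transcripts only, a length offset, Y-linked, date and mouse-number terms, stimulated libraries alone, thinning to the smallest total of estimated counts, and each mouse left out. Estimates based on few counts are limited by depth, mainly Cdkn1a before and Cdkn2c and Cdc25b after stimulation.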

Additional observations from a re-analysis of the deposited data

Results flagged for a closer look

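The response to stimulation differed between genotypes, by the interaction term of edgeR's quasi-likelihood test, for Cdk6 and Ccnd2 of the 10 genes. For Cdk6 the response in CtslΔTEC cells minus that in Ctsl+/+ cells was -1.06 in log2 CPM (standard error 0.16, adjusted p = 0.00389), with 2 of 2 stimulated CtslΔTEC mice below and 2 of 2 stimulated Ctsl+/+ mice above all unstimulated mice of their genotype in CPM. In TPM the Ctsl+/+ mice overlapped, and with the length offset the interaction was -0.78 (adjusted p = 0.342). For Ccnd2 it was 0.92 (standard error 0.24, adjusted p = 0.0526), and all 4 stimulated mice were above all unstimulated mice of their genotype. Stimulated libraries differ from unstimulated ones in date and culture as well, which cannot be told apart from stimulation. They also differ in the share of mice with Y-linked transcripts. That share is higher in stimulated than in unstimulated Ctsl+/+ mice and lower in stimulated than in unstimulated CtslΔTEC mice, so it is mixed with the interaction. With the Y-linked covariate the Ccnd2 interaction still passed the test. No library of the 10 genes stood far from the others of its group in the 20 groups of 4 or 5 mice that were examined, where chance alone would mark about 1 in 20.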

How the results depend on the processing

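In unstimulated cells Ccnd2 and Cdc25b were lower in CtslΔTEC cells at an adjusted p under 0.1 in every alternative and with every mouse left out. The number of the 10 genes past the threshold, 4 in the reported fit, was 2 with the length offset, 2 with the Y-linked covariate and 2 with the mouse number as a replicate block, and 2 to 5 with a mouse left out (2 without Ctsl+/+ mouse 2 or CtslΔTEC mouse 3 or 5). Over all genes 1943 became 429 with the Y-linked covariate and 1051 with the replicate block. Same-numbered mice did not deviate together (correlations -0.16, 0.35, -0.10 and -0.14), and only 1 of the 4 numbers was its own best partner. For the stimulated groups no paired analysis was possible because they share fewer than 2 numbers. For stimulated cells 1898 genes became 1127 when those libraries were fitted alone and 945 to 2235 with a mouse left out (966 without Ctsl+/+ mouse 5, 945 and 1254 without CtslΔTEC mouse 6 and 7), and 3 of the 10 genes became 2 to 5 (5 without Ctsl+/+ mouse 6). For the interaction 856 genes became 334 to 1227 (340 without stimulated Ctsl+/+ mouse 5, 334 without CtslΔTEC mouse 6) and 2 of the 10 genes became 1 to 2 with a mouse left out, and 1 with the length offset. Where a stimulated group was left with 1 mouse, that mouse was assumed to vary like the other groups. The cause of these shifts was not tested.

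Differences that turned sign had all failed the test. In unstimulated cells Ccnd3 was at 0.027 with the length offset, and Cdkn1b at -0.0072 without count filter, -0.040 with date as a factor, -0.060 in the later date alone and -0.046 to 0.076 with a mouse left out. In stimulated cells Cdkn2d was at 0.0062 with DESeq2, 0.0011 with its size factors, 0.027 with protein-coding transcripts, 0.031 in stimulated libraries alone, 0.070 after thinning and -0.097 to 0.031 with a mouse left out, Cdk4-207 at 0.027 where Cdk4 was at -0.38, and Ccnd2 at -0.60 to 0.043 with a mouse left out. The Cdc25a response in CtslΔTEC cells was -0.0058 without count filter and -0.078 to 0.13 with a mouse left out. In the interaction Cdk4 was at 0.066 with the length offset and 0.072 for Cdk4-207, Cdkn1a at -0.0023 with the length offset and -0.18 with the Y-linked covariate, and Cdc25a at 0.0092 with that covariate. With a mouse left out the interaction ranged from -0.28 to 0.16 for Cdk4, -0.26 to 0.35 for Cdkn1a, -0.28 to 0.027 for Cdc25a and -0.99 to 0.19 for Cdc25b.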
